A study of Capra hircus with 12 samples.

Results

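The effect of lysyl oxidase-like 2 (LOXL2) in superficial layer cells of the goat temporomandibular joint (TMJ) was examined by RNA-seq, using 6 of the 12 libraries analysed here. All 6 came from cultured SLC, the cells of the superficial layer cartilage, and were chosen by their labels. There were 3 libraries of cells given IL-1β (Rep1 to Rep3) and 3 of cells given IL-1β + LOXL2. The other 6 libraries came from the middle layer cartilage (MLC) and served only to ask whether the effect differed between layers. According to the study's methods, the cells were freed by collagenase from the joints of young female goats obtained from an abattoir and were used after a few passages in monolayer. IL-1β was given at 10 ng for 1 h. LOXL2 was delivered by an Ad5 adenovirus overnight. For the sequenced cells the sources do not state whether the IL-1β group received an empty adenovirus, so the effect of LOXL2 and that of the virus cannot be told apart. No source ties the replicates to separate animals or cultures, so every p-value measures the spread between these libraries, which may be technical.

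LOXL2 is a secreted copper-dependent enzyme that oxidizes lysine side chains of collagen and elastin, the step that starts their crosslinking. IL-1β binds IL1R1 together with its co-receptor IL1RAP and acts through MYD88 and IRAK kinases on NF-κB and AP-1. In cartilage this raises prostaglandin enzymes, cytokines, chemokines and matrix proteases. The superficial layer of the TMJ condyle is fibrous tissue rich in type I collagen that covers the cartilage and bears shear at the joint surface. Ribosomal proteins, subunits of the respiratory chain and antioxidant enzymes such as the glutathione peroxidases are mostly encoded by short genes, whereas large matrix proteins and many chromatin regulators are encoded by long ones.

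The LOXL2 gene itself (chromosome 8, 70222328 to 70337511 of the goat assembly ARS1.2) had 13578, 13602 and 13955 normalized counts in the IL-1β libraries and 10120.5, 11825 and 12119 in the IL-1β + LOXL2 libraries. Every library labelled IL-1β + LOXL2 was therefore below every IL-1β library, with a log2 fold change of -0.27 ± 0.11 (SE) and an adjusted p of 0.105 from edgeR's quasi-likelihood test. The sources do not say from which species the delivered LOXL2 came, so this count does not check the labels, and the groups rest on them. The libraries held 18751323 to 22123593 counts with IL-1β and 21080134 to 28931652 with IL-1β + LOXL2. Among the markers fixed for the layer, COL1A1, COL1A2 and COL3A1 summed to 1516451 to 1556946 normalized counts with IL-1β and 1309065 to 1541976 with IL-1β + LOXL2. The 8 chondrocyte markers summed to 28729 to 31432 with IL-1β and 16195 to 28811 with IL-1β + LOXL2. Most of this came from COL11A1, with 25717 to 28391 and 13068 to 25630. COL2A1, the collagen that defines hyaline chondrocytes, was at 0 in 5 libraries and at 1 count or fewer in the other, and COL9A1 was likewise near 0. PRG4, the lubricin of the superficial zone, was measured in all 6 libraries (80.7 to 119 normalized counts). Of 71 markers of 8 other cell types, 41 stayed under 20 normalized counts in every library, among them PECAM1, PTPRC, CDH5, ACTA1 and KRT14. The summed endothelial markers were 343 to 369 with IL-1β and 389 to 686 with IL-1β + LOXL2, most of it from EGFL7 (log2 fold change 0.76). Of the other tested endothelial markers, VWF was at 0.03 and TEK at -0.62, with TEK lower in every LOXL2 library than in any IL-1β library. The summed adipocyte markers, also without overlap between the groups, were 318 to 362 against 385 to 468. Those of skeletal muscle, again without overlap, were 340.4 to 386 against 252 to 294, and the sums of the other 5 types overlapped. The adipocyte sum was mostly CIDEC (log2 fold change 0.55), and the other 3 tested adipocyte markers (ADIPOQ, PLIN1 and LEP) had negative values. Most of the muscle sum was PAX7 (-0.47). The part of these cell types in the results below was not tested. In bulk RNA, fewer cells of a type and less RNA per cell cannot be told apart.

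The 3 libraries of the IL-1β + LOXL2 group did not lie together, and Rep1 stood apart from Rep2 and Rep3. Of 14103 genes with enough counts to be tested, 1117 lay at least 1 on the log2 scale away from the mean of Rep2 and Rep3 in Rep1, 737 of them above and 380 below. The same count was 788 for Rep2 and 140 for Rep3, and it was 107 to 132 for the IL-1β libraries. The pairs show where Rep1 lay. It differed by at least 1 from the IL-1β libraries at 294, 380 and 292 genes, against 2081 genes from Rep2 and 699 from Rep3 of its own group. Rep2 and Rep3 differed from each other at 385 genes, and the IL-1β libraries differed among themselves at 184 to 201. By this count Rep1 was nearer to every IL-1β library than to either library of its own group. Whether Rep1 received the treatment on its label was not tested, and every fold change over the 3 libraries rests on that label. On the first principal component, which held 78.6% of the variance, Rep1 was at -12.3, the IL-1β libraries at -38.0 to -24.7, Rep2 at 69.0 and Rep3 at 38.7. On the second, with 7.63%, Rep1 was at -23.8, lower than the other 5 libraries.

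**Figure D1:**
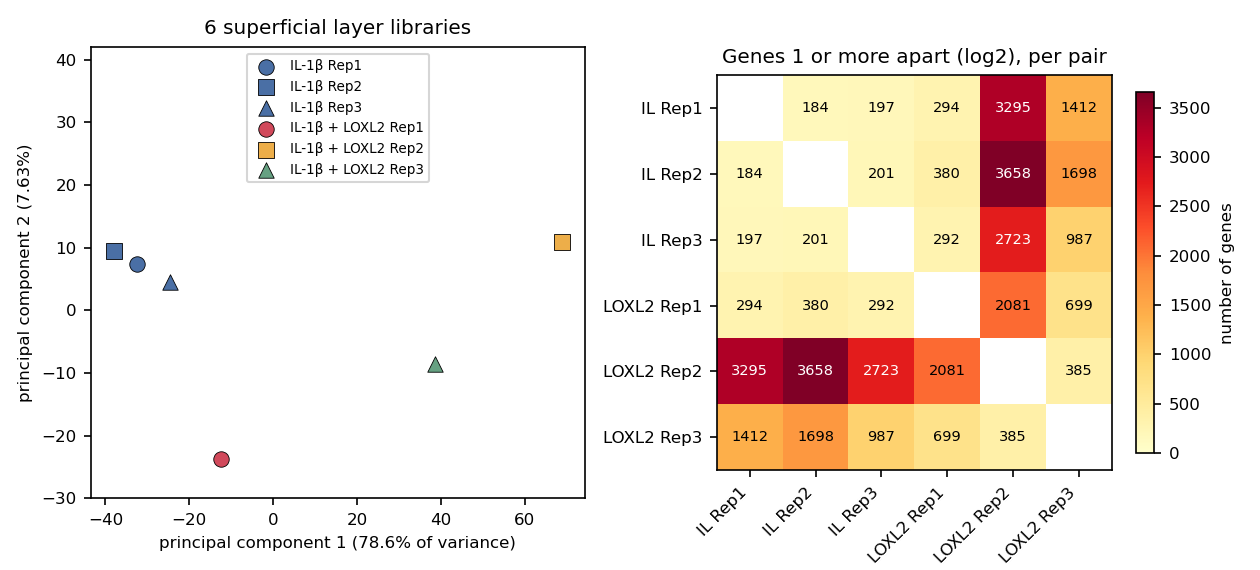
Left, the first 2 principal components of the log2 CPM of the 6 superficial layer libraries, each point 1 library. Right, the number of genes that lay 1 or more apart on the log2 scale in each pair of libraries (IL, IL-1β; LOXL2, IL-1β + LOXL2). Rep1 of IL-1β + LOXL2 differed from the IL-1β libraries at 292 to 380 genes and from Rep2 at 2081.

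Gene by gene, Rep1 mostly lay between the IL-1β libraries and the other 2 libraries of its group. Rep2 and Rep3 were both above every IL-1β library at 5540 genes. At these, Rep1 was also above the IL-1β range but short of Rep2 and Rep3 at 3094 genes (55.8%), within the IL-1β range at 1516 (27.4%), below it at 509 (9.19%), and level with or beyond Rep2 and Rep3 at 421 (7.60%). Both were below every IL-1β library at 5437 genes, where the same 4 places held 54.2%, 28.3%, 9.42% and 8.13%.

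**Figure D2:**
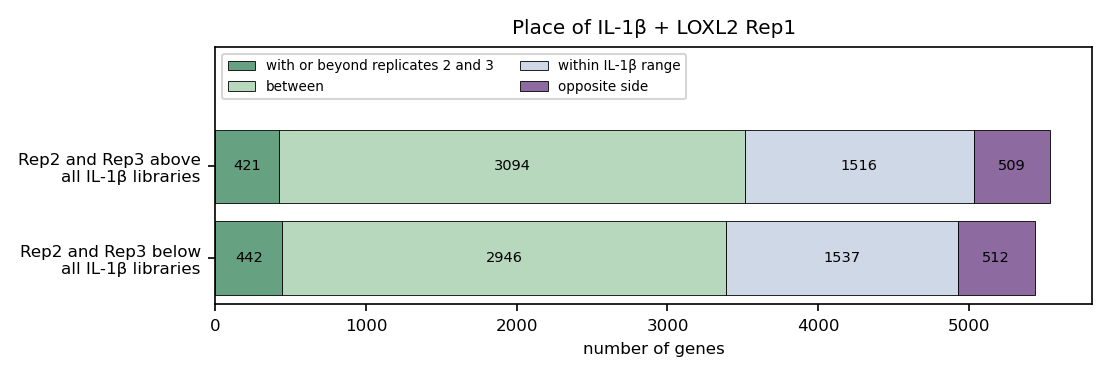
Number of genes by where IL-1β + LOXL2 Rep1 lay, for genes at which Rep2 and Rep3 were both below (lower bar) or both above (upper bar) all 3 IL-1β libraries. The widest class in both bars, 2946 and 3094 genes, is that in which Rep1 lay between the IL-1β libraries and the other 2.

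With all 6 libraries, 0 of 14103 genes had an adjusted p under 0.05 in edgeR's quasi-likelihood test. Before adjustment, 3257 genes (23.1%) were higher and 2851 (20.2%) lower with LOXL2 at a p under 0.05. The smallest adjusted p of that test was 0.0706, a value shared by 2185 genes, and 5472 genes were under 0.1. DESeq2's Wald test, the study's own tool, called 2202 genes higher (17.1% of 12880) and 1905 lower (14.8%). Without Rep1 of IL-1β + LOXL2, edgeR called 4439 genes higher (31% of 14334) and 4410 lower (30.8%). The 3 IL-1β + LOXL2 libraries lay wholly above the IL-1β libraries at 3569 genes (25.3%) and wholly below at 3347 (23.7%), which for 3 against 3 gives a two-sided exact permutation p of 0.1, the smallest possible. The log2 fold change was positive at 50.7% of all genes and negative at 49.3%, with a median of 0.013. Folds were larger on the lower side, since 547 genes (3.88%) had a log2 fold change of -1 or less and 243 (1.72%) of 1 or more. Below, "called" refers to DESeq2's Wald test, a log2 fold change is edgeR's with its SE, and no gene passed edgeR's threshold with all 6 libraries. Lists were not tested as such.

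Ribosomal protein genes were higher with LOXL2 as a block. All 80 tested cytosolic ribosomal protein genes had a positive log2 fold change, with a median of 0.85 (1.06 without Rep1) against 0.013 for all genes. Of these, 79 were called, against 17.1% of all genes, and at 79 the groups did not overlap, against 25.3% of all genes. The medians in Rep1, Rep2 and Rep3, each against the mean of the IL-1β libraries, were 0.26, 1.27 and 0.84. Among the members with the largest change was RPL36, a protein of the large subunit (chromosome 7, 91913895 to 91915409), with 3844, 3877 and 4491 normalized counts in the IL-1β libraries and 5039.6, 12416 and 8384 in the IL-1β + LOXL2 libraries. All 3 LOXL2 libraries were above all 3 IL-1β libraries, with Rep1 nearest to them, and the log2 fold change was 1.08 ± 0.30 (DESeq2 adjusted p = 0.00543). RPS21, RPL35A and RPS28 had log2 fold changes of 1.03, 1.00 and 1.00. Ribosomal protein genes have many near-identical copies in the genome, so their counts are uncertain. The 54 initiation and elongation factor genes were 36 higher and 18 lower (median 0.28). Of these, 15 were called higher and 3 lower, against 17.1% and 14.8% of all genes. The elongation factor genes EEF1A2 and EEF1D were higher by 0.93 and 0.86, as were the eIF3 subunit genes EIF3G (0.73) and EIF3K (0.72). The 40 aminoacyl-tRNA synthetase genes were 25 higher and 15 lower (median 0.09). Called higher were 7, near the 17.1% of all genes, and called lower 2, below the 14.8% of all genes. The kinases that shut initiation down under stress lay on the other side. EIF2AK2, the double-stranded RNA sensor PKR, had 530.4, 564 and 402 normalized counts in the IL-1β libraries and 292, 67.4 and 109 in the IL-1β + LOXL2 libraries (log2 fold change -1.68 ± 0.48), while EIF2AK3 (PERK) and EIF2AK4 (GCN2) were at -0.57 and -0.67.

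Nuclear genes of the mitochondrial ribosome and the respiratory chain were also mostly on the higher side. All 77 mitochondrial ribosomal protein genes were positive (median 0.64, 0.80 without Rep1), and 53 were called, against 17.1% of all genes called higher. MRPL57 had 740.3, 886 and 902 normalized counts in the IL-1β libraries and 1078, 2625 and 1797 in the IL-1β + LOXL2 libraries, a log2 fold change of 1.12 ± 0.30. MRPL41, MRPL23 and MRPL21 were at 1.05, 1.04 and 0.96. Of 38 subunit genes of Complex I, the NADH dehydrogenase that starts the chain, 37 were positive (median 0.73, 0.92 without Rep1). Of the 38, 35 were called, all higher, against 17.1% of all genes. NDUFA3 had 314, 356 and 386 normalized counts in the IL-1β libraries and 465, 987 and 721 in the IL-1β + LOXL2 libraries (log2 fold change 1.04 ± 0.26), and NDUFB4, NDUFA7 and NDUFA13 lay between 0.98 and 1.01. The exception was NDUFS1, the large iron-sulfur subunit, at -0.27 ± 0.15. All 21 measured genes with ATP5 and SDH symbols, most of them subunits of ATP synthase and succinate dehydrogenase, were positive (median 0.61), led by ATP5I (0.98) and ATP5D (0.90). Of 32 genes of mitochondrial protein import, 29 were positive (median 0.49), with TIMM10, a chaperone of the intermembrane space, at 0.96 ± 0.23. Of 24 assembly factors, 20 were positive (median 0.49). ROMO1, a small inner membrane protein, had 662, 685 and 827 normalized counts in the IL-1β libraries and 884, 2312 and 1591 in the IL-1β + LOXL2 libraries and was among the 15 genes with the largest increase (log2 fold change 1.14 ± 0.32).

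Transcripts made inside the mitochondrion did not share the direction of the nuclear genes of the same complexes. Of 12 tested genes of mitochondrial DNA, 4 were higher and 8 lower (median -0.32), with medians of -0.03, -0.67 and -0.07 in Rep1, Rep2 and Rep3. ND4L had 516, 588 and 476 normalized counts in the IL-1β libraries and 305, 69.8 and 170.4 in the IL-1β + LOXL2 libraries (log2 fold change -1.55 ± 0.45), and ND2 had 6096, 5900.0 and 5559.8 against 5526, 2252 and 3422 (-0.65 ± 0.29). ND1 was on the higher side, with 1234, 1065 and 1214 against 1384, 2536 and 1953 (0.74 ± 0.21). Of the 12, DESeq2 called only ND1 higher and only ND4L lower, against 17.1% and 14.8% of all genes. The 36 genes of mitochondrial dynamics and biogenesis were 19 higher and 17 lower (median 0.03). Called were 5 higher and 1 lower, both below the shares of all genes, 17.1% and 14.8%. TFAM, which packages mitochondrial DNA, was at -0.38 ± 0.16, and FIS1, the receptor of the fission machinery, at 0.87 ± 0.27.

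Antioxidant, proteasome and lysosome genes were mostly higher. Of 43 glutathione, thioredoxin and superoxide genes, 37 were positive (median 0.42, 0.50 without Rep1). Of the 43, 18 were called higher and 1 lower, against 17.1% and 14.8% of all genes. GPX4 (chromosome 7, 66891529 to 66893834), the peroxidase that reduces lipid peroxides in membranes, had 3820.1, 3443 and 4060.0 normalized counts in the IL-1β libraries and 4849, 10012 and 7001 in the IL-1β + LOXL2 libraries. All LOXL2 libraries were higher than all IL-1β libraries, and the log2 fold change was 0.95 ± 0.25 (DESeq2 adjusted p = 0.00541). PRDX5 and GPX1 were at 0.90 and 0.90, with Rep1 inside the IL-1β range at GPX1. TXNRD2, the thioredoxin reductase of mitochondria, was at 0.68 ± 0.24, and SOD1 at 0.33 ± 0.15 with overlapping groups. Of the 6 negative genes in this list, SLC7A11 had the lowest value. SLC7A11, the cystine importer, had 667, 838 and 548 normalized counts in the IL-1β libraries and 321, 52.1 and 138 in the IL-1β + LOXL2 libraries (log2 fold change -2.02 ± 0.55), and both subunit genes of glutamate-cysteine ligase, which makes the precursor of glutathione, were negative (GCLM -0.50, GCLC -0.24), the latter with overlapping groups. Of 47 proteasome genes, 41 were positive (median 0.48), and 28 were called, all higher, against 17.1% of all genes. The list was led by the assembly chaperones PSMG4 (0.95) and PSMG3 (0.95) and the immunoproteasome subunit PSMB10 (0.91). At PSMB10, Rep1 was below all IL-1β libraries. Of 41 V-ATPase and lysosome genes, 29 were positive (median 0.36), with the protease CTSD at 0.78 ± 0.22. Small RNA polymerase II subunits such as POLR2L (1.06) were higher, while POLR2A, the catalytic subunit, had 5107, 4884 and 4529 against 3882, 2317 and 2619.5 normalized counts (-0.72 ± 0.19).

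**Figure D3:**
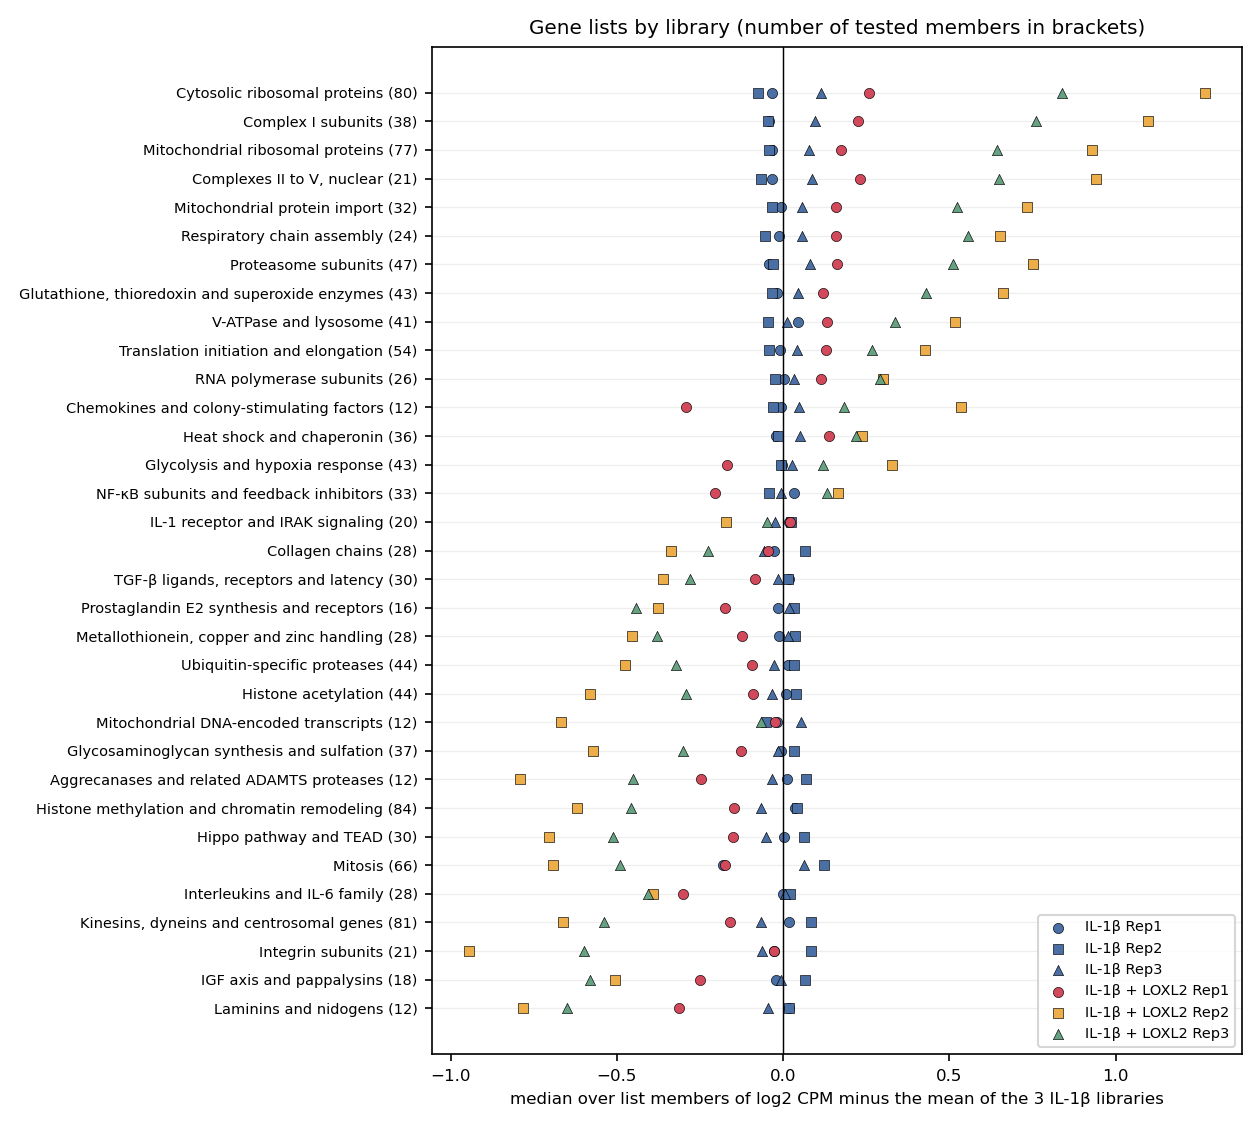
Median over the members of each gene list of log2 CPM minus the mean of the 3 IL-1β libraries, 1 point per library. In the lists at the top and bottom, Rep2 lies farthest from 0 in most, then Rep3, then Rep1 (cytosolic ribosomal proteins 0.26, 1.27 and 0.84 in Rep1 to Rep3), while for chemokines, NF-κB and glycolysis Rep1 lies on the other side of 0 from Rep2 and Rep3.

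Matrix genes split by type. The ADAMTS proteases, some of which cut aggrecan and versican, were mostly lower. Of 12 measured ADAMTS genes, 11 were negative (median -0.40, -0.60 without Rep1), and 5 were called, all lower, against 14.8% of all genes. ADAMTS5 (chromosome 1, 7818403 to 7871968), a main aggrecanase of cartilage, had 5863, 5591 and 4357 normalized counts in the IL-1β libraries and 2492, 1541 and 1716 in the IL-1β + LOXL2 libraries. The groups were far apart, with Rep1 the highest of the LOXL2 libraries, and the log2 fold change was -1.46 ± 0.21 (DESeq2 adjusted p = 1.12e-07). ADAMTS1 and ADAMTS9 were at -1.08 ± 0.21 and -0.92 ± 0.17. ADAMTS4, the other main aggrecanase, was at -0.03 ± 0.12 with overlapping groups. The metalloproteinases and their inhibitors showed no shared direction (9 higher and 7 lower of 16). MMP13, a collagenase, had 26.2, 34.2 and 21.8 normalized counts in the IL-1β libraries and 7.06, 61.7 and 52.2 in the IL-1β + LOXL2 libraries, so Rep1 was the lowest and Rep2 and Rep3 the highest of the 6. TIMP1, an inhibitor of metalloproteinases, had 12039.8, 12827 and 15095 against 15114, 28861 and 22274 (log2 fold change 0.73 ± 0.23), and the stromelysin-like MMP11 had 551, 594 and 531 against 835, 885 and 931 (0.66 ± 0.11).

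VCAN (chromosome 7, 27133454 to 27253501), the large hyaluronan-binding proteoglycan versican, was among the matrix genes with the largest decrease. It had 39490.2, 53752 and 43528 normalized counts in the IL-1β libraries and 20457, 12019.8 and 14689.9 in the IL-1β + LOXL2 libraries, with no overlap and a log2 fold change of -1.54 ± 0.22 (DESeq2 adjusted p = 3.42e-08). HAS2, which makes hyaluronan, had 131, 152 and 139 against 111, 58.5 and 68.9 (-0.83 ± 0.25). Of 12 laminin and nidogen genes, 10 were negative (median -0.64, -0.70 without Rep1), including NID1 (-0.77), LAMC1 (-0.66) and the basement membrane proteoglycan HSPG2 (-0.82). The 28 collagen genes were 9 higher and 19 lower (median -0.21), and 6 were called, all lower, against 14.8% of all genes called lower. COL12A1, which lies on the surface of type I fibrils, had 37626, 44766 and 36147 normalized counts in the IL-1β libraries and 26382, 12891 and 16883 in the IL-1β + LOXL2 libraries (-1.08 ± 0.26), and COL8A1, COL5A1 and COL6A3 were at -0.72, -0.70 and -0.69. COL16A1 (0.27) and COL6A2 (0.12) lay above the IL-1β libraries in all 3 LOXL2 libraries. Fibronectin (FN1) had 221718, 237387 and 201631 against 171208, 86385 and 110604 normalized counts (-0.84 ± 0.25), and the fibrillins FBN1 and FBN2 were at -1.10 ± 0.29 and -1.14 ± 0.13. Enzymes that make glycosaminoglycan chains were mostly lower (10 higher and 27 lower of 37, median -0.35), with XYLT1, which places the first sugar, at -1.11 ± 0.22 and HS2ST1, a heparan sulfotransferase, at -1.77 ± 0.47.

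Several short matrix genes lay on the higher side. MGP, the inhibitor of calcification in cartilage, had 427, 317 and 269 normalized counts in the IL-1β libraries and 555, 968 and 774 in the IL-1β + LOXL2 libraries. It was higher in all LOXL2 libraries, with a log2 fold change of 1.19 ± 0.25 (DESeq2 adjusted p = 0.000800). The microfibril proteins MFAP2 and MFAP4 were at 0.96 and 0.58, the procollagen C-proteinase enhancer PCOLCE at 0.57 ± 0.16 and biglycan (BGN) at 0.36 ± 0.13. In the lysyl oxidase family, to which the delivered enzyme belongs, LOX had 29368, 30812 and 28128 normalized counts in the IL-1β libraries and 22611, 15507 and 16677 in the IL-1β + LOXL2 libraries (-0.69 ± 0.16). The collagen lysyl hydroxylase PLOD2 was also lower (-0.92 ± 0.24), whereas P3H3 and the collagen isomerase PPIB were higher (0.54 and 0.68), and the 29 collagen processing genes as a list had a median of 0.04. Chondrocyte genes had no shared direction (8 higher and 8 lower of 16). SOX5 and SOX6, partners of SOX9, were at -0.89 and -0.93, SOX9 at -0.25 ± 0.18, and COMP at 0.36 ± 0.17. ACAN had 1106, 1040.3 and 995 normalized counts in the IL-1β libraries and 1201, 637 and 761 in the IL-1β + LOXL2 libraries, so Rep1 was the highest and Rep2 and Rep3 the lowest of the 6. In the superficial zone list (10 higher and 9 lower of 19), CRIP1 was higher (0.94 ± 0.17), and ABI3BP (-0.69) and CREB5 (-0.60) were lower.

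Receptors that bind matrix were mostly lower. Of 21 integrin subunit genes, 14 were negative (median -0.47, -0.82 without Rep1), with medians of -0.03, -0.94 and -0.60 in Rep1, Rep2 and Rep3. ITGB8, which releases active TGF-β, had 1092, 1000.2 and 946 normalized counts in the IL-1β libraries and 554, 524 and 529 in the IL-1β + LOXL2 libraries (log2 fold change -0.92 ± 0.10, DESeq2 adjusted p = 2.83e-08). Its 3 LOXL2 libraries were close to each other. ITGA1, a collagen receptor subunit, and ITGA4 were at -0.95 ± 0.16 and -1.29 ± 0.30, and ITGB5 was higher (0.49 ± 0.13).

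In the IL-1 pathway the lower genes included receptor chains and an IRAK. IL1RAP (chromosome 1, 76348425 to 76502431), the co-receptor needed for IL-1 signaling, had 224, 234 and 234 normalized counts in the IL-1β libraries and 106, 40.1 and 36.4 in the IL-1β + LOXL2 libraries. All 3 LOXL2 libraries were lower, Rep2 and Rep3 most, and the log2 fold change was -1.93 ± 0.38 (DESeq2 adjusted p = 0.000196), -2.58 without Rep1. IRAK3, which restrains the pathway, had 468, 487 and 372 normalized counts in the IL-1β libraries and 197, 144 and 141 in the IL-1β + LOXL2 libraries (-1.46 ± 0.18), and the IL-18 receptor gene IL18R1 was at -1.16 ± 0.20. As a list, the 20 receptor and IRAK genes were 10 higher and 10 lower, and 6 were called, all lower, against 14.8% of all genes. The NF-κB list held 20 positive and 13 negative genes (median 0.03). NFKB1 had 2524, 2469 and 2456 normalized counts in the IL-1β libraries and 1940.0, 2112 and 2126 in the IL-1β + LOXL2 libraries (log2 fold change -0.27 ± 0.09, edgeR adjusted p = 0.0818), RELA was at 0.10 ± 0.12 with overlapping groups, and KDM6B, a histone demethylase, was at -0.27 ± 0.11. NFKBIZ (-0.53), BIRC3 (-0.60) and TRAF1 (-0.76) were lower in every LOXL2 library than in any IL-1β library. NFKBIB (0.71) and TNIP2 (0.65), which hold NF-κB back, had positive values, with Rep1 inside the IL-1β range at NFKBIB.

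PTGS2, the cyclooxygenase induced by IL-1β, had 1670.0, 2257 and 2165 normalized counts in the IL-1β libraries and 575, 1248 and 1032 in the IL-1β + LOXL2 libraries (chromosome 16, 66345155 to 66353195). It was lower in all LOXL2 libraries and lowest in Rep1, with a log2 fold change of -1.09 ± 0.28 (DESeq2 adjusted p = 0.00396) and -0.83 without Rep1. PLA2G4A, which frees arachidonic acid for it, had 1062, 1347 and 1316 against 617, 898 and 761 (-0.71 ± 0.17), and ABCC4, a prostaglandin exporter, 1470.3, 1581 and 1536 against 827, 838 and 774 (-0.91 ± 0.10). PTGES, which makes prostaglandin E2 from the product of PTGS2, showed a different order, with 1721, 1837 and 2136 normalized counts in the IL-1β libraries and 883, 4888 and 2770.2 in the IL-1β + LOXL2 libraries. Rep1 was below and Rep2 and Rep3 were above all IL-1β libraries, and the log2 fold change of 0.59 ± 0.51 had an edgeR adjusted p of 0.387.

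PTGES was 1 of 10 genes at which Rep1 lay farthest below the nearer of Rep2 and Rep3, and several of that set are known to respond to IL-1β. CSF3, the granulocyte growth factor, had 103, 126 and 135 normalized counts in the IL-1β libraries and 17.1, 256 and 139.8 in the IL-1β + LOXL2 libraries. CCL20, a chemokine for lymphocytes and dendritic cells, had 1113, 969 and 1166 normalized counts in the IL-1β libraries and 469.9, 2999.9 and 1704 in the IL-1β + LOXL2 libraries. At both genes Rep1 was the lowest of the 6 libraries and Rep2 the highest, with Rep3 above all IL-1β libraries. IL6 had 2228, 3364 and 3303 normalized counts in the IL-1β libraries and 654, 3247 and 2189 in the IL-1β + LOXL2 libraries. PTX3, a pentraxin induced by IL-1β, had 768, 779 and 1075 normalized counts in the IL-1β libraries and 276, 1478 and 961 in the IL-1β + LOXL2 libraries. At both, Rep1 was below every IL-1β library, while at least 1 of Rep2 and Rep3 lay within the IL-1β range. Rep1 minus the nearer of the other 2, on the log2 scale, was -2.90 at CSF3, -1.86 at CCL20, -1.75 at IL6 and -1.80 at PTX3. The remaining 5 were TNIP3, an A20-binding inhibitor of NF-κB, FBXO2, G0S2, RGS2 and LSM5, with values from -2.18 to -1.53. With all 6 libraries the log2 fold changes of these 10 genes ran from -0.54 ± 0.50 to 1.01 ± 0.54, and none was called by either tool. Without Rep1, edgeR's log2 fold changes were 1.12 at CCL20, 1.02 at PTGES, 1.44 at G0S2 and -0.12 at IL6. These genes were picked by the low place of Rep1. Leaving it out therefore had to raise them, so their p-values are not given. MMP13, picked as a gene of the study, was at 1.05 (edgeR adjusted p = 0.00611) without Rep1. That fit called 31% of 14334 genes higher. Some whole lists also placed Rep1 on the other side of the IL-1β mean from Rep2 and Rep3. In Rep1, Rep2 and Rep3 the median of 12 chemokine and colony-stimulating genes was -0.29, 0.54 and 0.18, that of 33 NF-κB genes -0.20, 0.16 and 0.13, and that of 43 glycolysis and hypoxia genes -0.17, 0.33 and 0.12. Of 59 lists in which Rep2 and Rep3 lay on the same side of the IL-1β mean, Rep1 was nearer to that mean on the same side in 42, as far or farther in 4, and on the other side in 13.

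**Figure D4:**
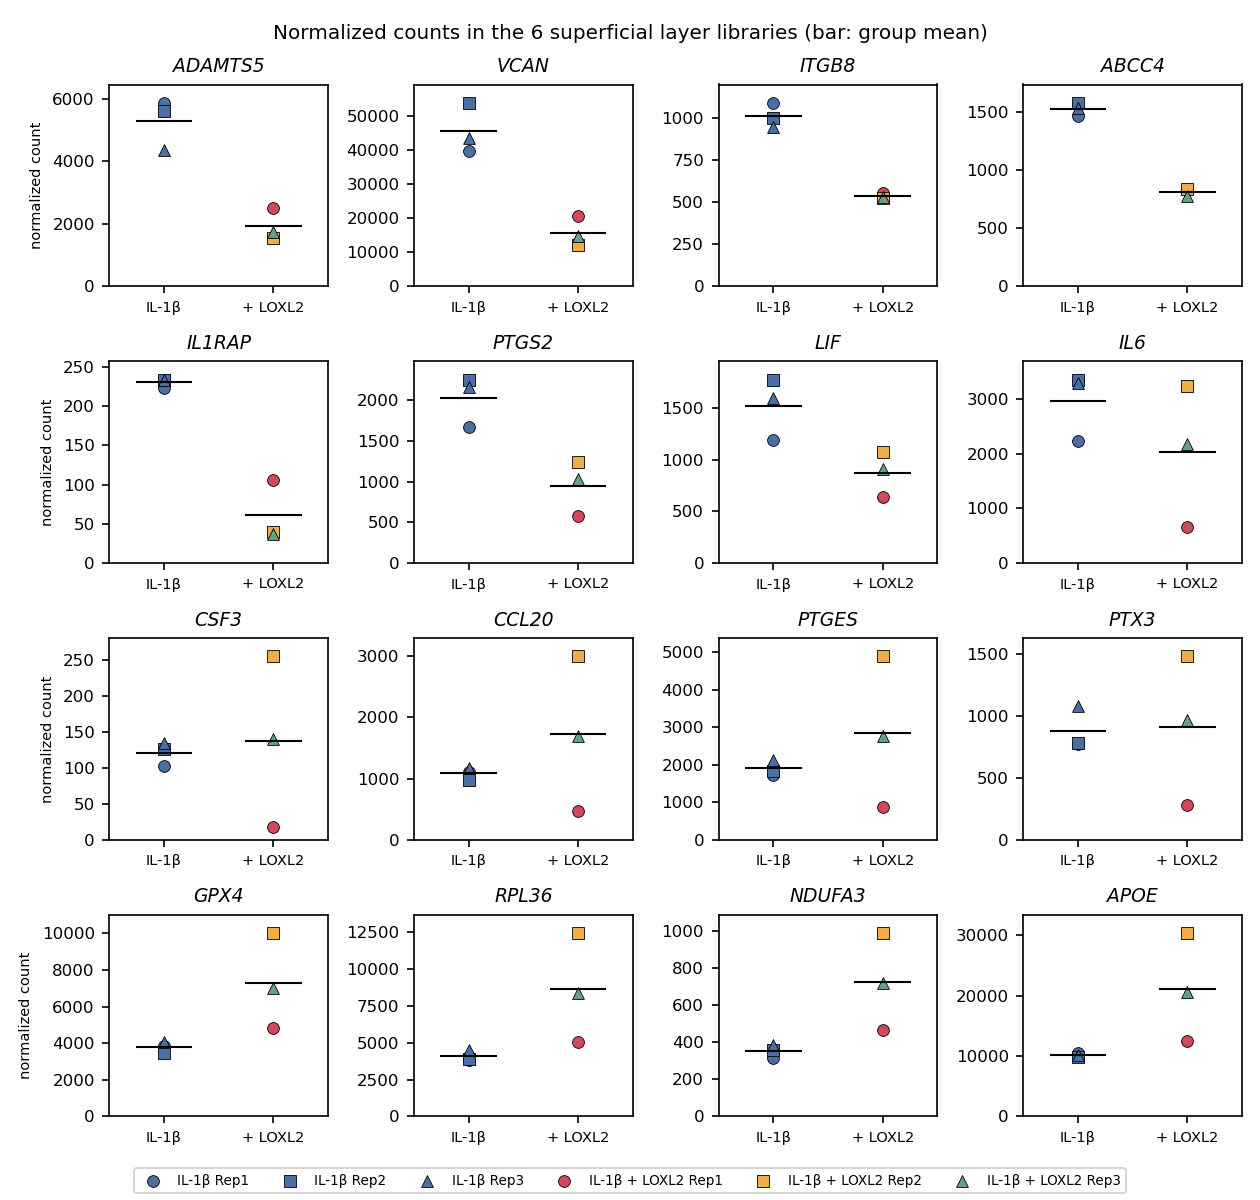
Normalized counts (linear axes from 0) of 16 genes in the 6 superficial layer libraries, with the mean of each group as a bar. At ADAMTS5, VCAN, ITGB8, ABCC4, IL1RAP, PTGS2 and LIF all 3 LOXL2 libraries are lower, at GPX4, RPL36, NDUFA3 and APOE all are higher, and at CSF3, CCL20 and PTGES Rep1 is the lowest and Rep2 the highest of the 6.

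The opposite gap, Rep1 far above Rep2 and Rep3, was found at genes that were lower with LOXL2. Its 10 largest cases were ATRX, FAM102B, CHML, LRRC58, FOXN2, ZBED6, USP33, UGGT1, ATP7A and DPY19L3, with gaps of 1.84 to 2.52. ATRX, a chromatin remodeler, had 849.8, 941 and 608 normalized counts in the IL-1β libraries and 491, 28.1 and 83.7 in the IL-1β + LOXL2 libraries. Rep1 was below the IL-1β libraries but several times above Rep2 and Rep3, and the log2 fold change was -2.01 ± 0.85 (edgeR adjusted p = 0.113) and -3.88 without Rep1. At all 10 genes the LOXL2 libraries were below the IL-1β libraries. Rep1 was the highest of the LOXL2 libraries at each because the genes were picked by that gap. For the same reason, leaving Rep1 out had to lower the value of ATRX.

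A smaller set of genes did not place Rep1 nearer to the IL-1β libraries. At 863 genes Rep1 was level with or beyond Rep2 and Rep3 on their side of the IL-1β range. ABCC4 was among them. FBN2 had 1057, 1154 and 927 with IL-1β and 449.7, 520.4 and 456 with IL-1β + LOXL2 (log2 fold change -1.14 ± 0.13, DESeq2 adjusted p = 2.61e-09). WNT5A, a noncanonical Wnt ligand, had 870.3, 1144 and 1016 against 554, 553 and 570.2 (-0.85 ± 0.13), and LTBP1, which stores latent TGF-β in the matrix, 5012, 5419.9 and 5393 against 3465, 3469 and 3431 (-0.61 ± 0.09). NFKBIZ, a nuclear cofactor of NF-κB, had 3220.1, 2937 and 2960.4 against 2027, 2184 and 2086, and PIEZO1, a mechanosensitive channel at which Rep1 fell just short of Rep2 and Rep3, had 5877, 6536 and 6060.1 against 4507, 4327 and 4295. GADD45A, a stress gene, lay higher, at 2304, 1959 and 2334 against 3152, 3113 and 3286 (0.54 ± 0.11). In each of these the 3 LOXL2 libraries were closer to each other than to any IL-1β library.

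Cytokine receptors and growth factor pathways were mostly lower. Of 28 interleukin and IL-6 family genes, 19 were negative (median -0.45, -0.47 without Rep1). LIF had 1193, 1775 and 1596 normalized counts in the IL-1β libraries and 635, 1078 and 913 in the IL-1β + LOXL2 libraries (-0.79 ± 0.23), with Rep1 the lowest, and the shared receptor IL6ST had 3946, 3829 and 3477 against 2647, 1599 and 1729 (-0.91 ± 0.19). JAK2, which carries its signal, was at -0.81 ± 0.23, and the receptor gene IL11RA was higher (0.60 ± 0.14). Of 18 genes of the IGF axis, 15 were negative (median -0.55), including IGF1 (-0.65 ± 0.16), IRS1 (-0.68) and IGFBP3 (-1.07 ± 0.17), while the binding proteins IGFBP2 and IGFBP6 were higher (0.64 and 0.57). Of 30 Hippo pathway genes, 25 were negative (median -0.42), with the transcription factor TEAD1 at -1.03 ± 0.21, its cofactor VGLL3 at -1.29 ± 0.34 and the cadherin FAT4 at -1.10 ± 0.35. TGF-β genes were 10 higher and 20 lower of 30 (median -0.25), BMP genes 10 higher and 19 lower of 29 (median -0.15), Wnt genes 15 higher and 25 lower of 40 (median -0.16) and FGF genes 8 higher and 14 lower of 22 (median -0.12). In these lists the receptor BMPR2 was at -1.02 ± 0.23, the Wnt co-receptor LRP6 at -1.71 ± 0.38 and LTBP2 at -0.80 ± 0.21. GDF15, a cytokine of mitochondrial and other stress, was higher (0.78 ± 0.24).

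Genes that read and write chromatin formed a large group on the lower side. Of 84 histone methylation and remodeling genes, 69 were negative (median -0.40, -0.54 without Rep1). DESeq2 called 34 lower and 2 higher, against 14.8% and 17.1% of all genes. TET1, which oxidizes methylated cytosine, had 292, 315 and 234 normalized counts in the IL-1β libraries and 171, 36.9 and 53.2 in the IL-1β + LOXL2 libraries (-1.70 ± 0.51), and the lysine enzymes SETD7 and KDM5A were at -1.57 ± 0.47 and -1.55 ± 0.49. SMARCB1 and SMARCD3, subunits of the SWI/SNF remodeler, were on the higher side (0.57 and 0.54). Of 44 histone acetylation genes, 27 were negative (median -0.30), with the acetyltransferase EP300 at -0.89 ± 0.18 and the mitochondrial deacetylase SIRT3 at 0.84 ± 0.25. Of 233 ZNF genes, 153 were negative (median -0.18). Ubiquitin-specific proteases were lower at 36 of 44 (median -0.28), in contrast to the proteasome genes above, with USP34 at -0.88 ± 0.25.

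Genes of division and of transport along microtubules were mostly lower too. Of 66 mitosis genes, 54 were negative (median -0.44), with TOP2A, which untangles chromosomes, at 1434, 1921 and 1818 against 1250.3, 540.5 and 693 (-1.06 ± 0.30) and the kinetochore scaffold KNL1 at -1.51 ± 0.56. The IL-1β libraries themselves differed here, since their medians were -0.18, 0.12 and 0.06 in Rep1 to Rep3 and that of LOXL2 Rep1 was -0.17. The 57 DNA replication genes were 27 higher and 30 lower (median -0.02). Of 81 kinesin, dynein and centrosomal genes, 67 were negative (median -0.46), among them CEP290 (-1.20 ± 0.36) and KIF1B (-1.01 ± 0.29). In the contractile list (17 higher and 19 lower of 36) the small proteins TPM2 and MYL9 were higher (0.71 and 0.66).

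Apoptosis genes lay on both sides. BCL2, the founding inhibitor of apoptosis, had 267, 329 and 248 normalized counts in the IL-1β libraries and 189.6, 38.5 and 82.7 in the IL-1β + LOXL2 libraries (-1.45 ± 0.49), and BIRC6 and XIAP were at -1.01 and -0.76. APAF1, which assembles the apoptosome, was lower as well (-0.82 ± 0.32). BAX and BAD, which promote apoptosis, had 1299, 1225 and 1385 against 1611, 2829.9 and 2244 and 848, 783 and 953 against 978, 2248 and 1662 (0.78 ± 0.20 and 0.92 ± 0.28). Of the 40 genes in the list, 25 were positive and 15 negative (median 0.10). The p53 regulators ATM and MDM4 were lower (-1.24 ± 0.35 and -1.39 ± 0.29), and the p53 target CDKN1A was at 0.35 ± 0.09. The 41 interferon-stimulated and nucleic acid sensing genes were 16 higher and 25 lower (median -0.16). The sensors DDX58 (RIG-I) and TLR3 were lower (-1.44 ± 0.42 and -0.70 ± 0.16), whereas IFI6 had 1125, 1198 and 1156 against 1299, 3525 and 2474 (1.07 ± 0.32).

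In metabolism, EPAS1, which encodes the hypoxia factor HIF-2α, had 58574, 59805 and 52050.3 normalized counts in the IL-1β libraries and 28088, 14460.0 and 22104 in the IL-1β + LOXL2 libraries (log2 fold change -1.40 ± 0.23, DESeq2 adjusted p = 6.23e-06). The glucose transporter SLC2A3 and hexokinase HK2 were at -1.64 ± 0.52 and -1.16 ± 0.38, and ENO3 was higher (0.64 ± 0.10). PDHA1, the entry of pyruvate into the citric acid cycle, was at -1.39 ± 0.46, against a median of 0.18 for its list. Cholesterol export and carriage went apart, with ABCA1 at 1602, 1488 and 1242 against 825, 391 and 485 (-1.35 ± 0.27) and APOE at 10436, 9804 and 10153 against 12501, 30380.2 and 20662 (1.07 ± 0.29).

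The 15 largest decreases among genes without overlap between the groups were those of ATP7A, LRRC58, USF3, NBEAL1, ZBED6, SLC7A11, ELK4, ATRX, IL1RAP, PHC3, FOXN2, DPY19L3, CHML, UGGT1 and TNFSF15, with log2 fold changes from -2.32 to -1.87. Not all of them were called. ATRX was at -2.01 ± 0.85 (DESeq2 adjusted p = 0.129) and CHML at -1.89 ± 0.73 (0.113). Several were also among the genes with the largest gap of Rep1 above Rep2 and Rep3. ATP7A, the copper exporter that loads copper-dependent enzymes such as the lysyl oxidases in the secretory pathway, had 419.8, 634 and 396 normalized counts in the IL-1β libraries and 213, 27.3 and 55.1 in the IL-1β + LOXL2 libraries. Rep1 was between the IL-1β libraries and the low level of Rep2 and Rep3. The copper chaperones ATOX1 and CCS and the copper regulator COMMD1 were on the higher side (0.71, 0.77 and 0.84), and the zinc exporter SLC30A1 was lower (-0.65 ± 0.15). ELK4, USF3 and FOXN2 encode transcription factors, PHC3 a Polycomb protein and UGGT1 the sensor of glycoprotein folding. TNFSF15, a TNF family ligand, had 2403, 1876 and 1499 normalized counts in the IL-1β libraries and 1034, 201 and 348 in the IL-1β + LOXL2 libraries (-1.87 ± 0.55). The largest increases by the same rule included those of JPH3, GDF1, MEF2B, GP9, NOXA1, MGP, TM7SF2, RARRES2, APOD, TMEM141, ROMO1, DNAH11, MRPL57 and GP1BB, from 1.12 to 1.57. GP9 and GP1BB encode subunits of a platelet receptor, TM7SF2 a reductase of cholesterol synthesis and DNAH11 an axonemal dynein. RARRES2, the chemoattractant chemerin, had 238, 214 and 264 against 273, 793 and 520.0 normalized counts (1.15 ± 0.35), APOD 122, 86.9 and 131 against 147, 373 and 228 (1.15 ± 0.34) and NOXA1, an activator of NADPH oxidase, 77.6, 66.4 and 77.2 against 87.7, 265 and 152. In each gene of both sets Rep1 lay between the IL-1β libraries and the nearer of Rep2 and Rep3. The choice of genes without overlap had already placed Rep1 outside the IL-1β range, on the side of Rep2 and Rep3.

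Grouping all genes by the letters that open their symbols gave 85 families of at least 15 tested members. The highest medians were those of RPL (0.85), RPS (0.83), MRPS (0.65), MRPL (0.62), S, mostly the S100 calcium-binding proteins (0.52), PRR (0.44), NUDT (0.30) and TRAPPC (0.28). The lowest were those of KIF (-0.49), MIR (-0.49), AKAP (-0.49), NR, the nuclear receptors (-0.46), KIAA (-0.42), PDE, the cyclic nucleotide phosphodiesterases (-0.40), KLHL (-0.40) and ZBTB (-0.40). MIR rows are microRNA genes, whose mature products are not captured by poly-T selection.

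Direction followed the genomic span of genes, introns included. Over 13021 protein-coding genes the rank correlation of log2 fold change with span was -0.53, across genes that are not independent. In the shortest decile (213 to 4003 bases) 1053 of 1303 genes were positive, with a median of 0.54, and in the longest decile (136881 bases or more) 1088 of 1302 were negative, with a median of -0.44. All 3 LOXL2 libraries showed the slope, with medians from 0.17 to -0.16 in Rep1, 0.79 to -0.67 in Rep2 and 0.56 to -0.53 in Rep3. IL-1β Rep3 leaned the same way by a little (0.07 to -0.05). When the trend of each library on span was removed, the median of cytosolic ribosomal protein genes was 0.52, of Complex I genes 0.53, of mitochondrial ribosomal protein genes 0.44 and of glutathione and thioredoxin genes 0.33. On the lower side it was -0.22 for histone methylation and remodeling, -0.42 for mitosis, -0.23 for integrins and -0.25 for laminins. The collagen list (0.01) and glycosaminoglycan synthesis (-0.05) were then near the median of all genes, 0.05. Single genes differed in how far this moved them. Of 160 genes named here and called by DESeq2, 16 had less than 50% of their log2 fold change left. Among these were LTBP1 (-0.13), CREB5 (-0.13), PLA2G4A (-0.26), ABI3BP (-0.27), COL8A1 (-0.31), EIF2AK3 (-0.25) and EIF2AK4 (-0.32). ABCC4 was at -0.47, ADAMTS5 at -1.22, VCAN at -1.17, IL1RAP at -1.58, PTGS2 at -1.33, GPX4 at 0.60 and ATP7A at -2.01. LOXL2 changed sign (0.14), as did NFKB1 (0.15). The part of span, or of RNA quality, in these results was not tested.

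**Figure D5:**
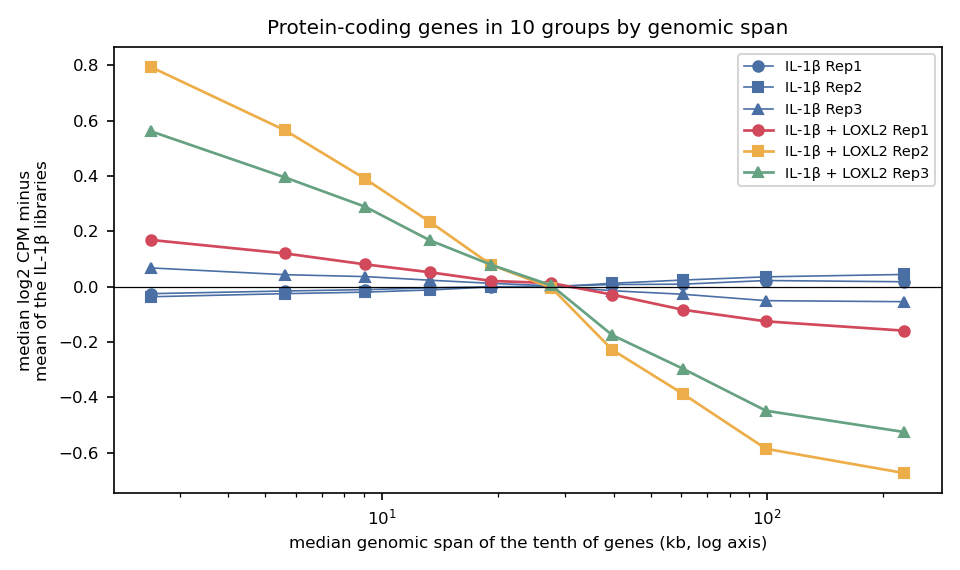
Median over protein-coding genes, in 10 groups by genomic span (log axis), of log2 CPM minus the mean of the 3 IL-1β libraries, 1 line per library. The lines of Rep2 (0.79 to -0.67) and Rep3 fall most steeply, that of LOXL2 Rep1 less, and the IL-1β libraries stay within -0.05 and 0.07.

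No gene showed a LOXL2 effect that differed between SLC and MLC at an adjusted p under 0.05 in edgeR's interaction test on 12 libraries (0 of 14519 genes, 327 at an unadjusted p under 0.05). Without SLC LOXL2 Rep1 the count was 1, with 3984 at an unadjusted p under 0.05. The gene was LOC108634776, looked up after its value was seen, with a difference of 1.42 ± 0.18 and an edgeR adjusted p of 0.0258. The difference in log2 fold change, SLC minus MLC, was -0.52 ± 0.32 (SE) for ADAMTS5, -0.36 ± 0.36 for PTGS2, -1.09 ± 0.50 for IL1RAP, -0.63 ± 0.29 for VCAN and 0.50 ± 0.30 for GPX4. The adjusted p was 0.958 or more for each named gene. A p that misses the threshold does not show that the layers responded alike.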

How the data were processed

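RNA-seq was performed as 12 libraries of goat TMJ cells, of which the 6 SLC libraries are described here. The authors selected poly-A mRNA, trimmed the reads and mapped them to ARS1.2. The submitters' processing notes name HISAT2 and featureCounts, and the handling of strand and of reads with several matches is not given in the sources used here. They deposited raw counts per gene, summing to 18751323 to 28931652 per SLC library. Of 28910 rows, 28884 matched RefSeq symbols of ARS1.2, and 26 hold gene names turned into dates by a spreadsheet. Genes were kept by filterByExpr (at least 10 counts and a total of 15), scaled by TMM and tested with edgeR 4.0.16 (quasi-likelihood, Benjamini-Hochberg, threshold 0.05) in R 4.3.3. Normalized counts are counts divided by DESeq2's size factors, log2 CPM use TMM with a prior count of 2, and Rep1 was placed gene by gene on them. DESeq2 1.42.0, other filters and scaling, each library left out and removal of the span trend (lowess, span 0.3) were alternatives. On simulated data the edgeR step recovered 195 of 200 changed genes with 9 false calls (13967 genes). Its recovery in these 6 libraries, with Rep1 apart from its group, was not tested. Named genes were the study's own, the 15 largest changes each way without overlap, the 4 largest each way in each list, and the 10 largest gaps of Rep1 each way, with a mean of at least 100 normalized counts except for the study's own. The members and lists were chosen with earlier results of these data known. Precision of counts covers counting error only. A few genes and gene groups that met these rules are not reported here.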

Additional observations from a re-analysis of the deposited data

How the results depend on the processing

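Against 0 genes past the threshold in edgeR's fit, DESeq2's Wald test called 4107 and edgeR with all 12 libraries 5962, 3273 of them higher and 2689 lower. Leaving out each SLC library gave 0 to 8849 genes, the highest without LOXL2 Rep1 and 0 without each of the other 5. The count stayed 0 with DESeq2's size factors, with no filter, with at least 10 counts in every library, with the span trend removed and for changes of at least 1 on the log2 scale. The departure of Rep1 was 2106 genes with no filter and 821 to 1115 under the other 3 settings, against 1117. The interaction gave 0 to 1 genes when each SLC library was left out. Among 63 lists, 55 to 63 kept the sign of their median.

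Fitting the replicate number as a block gave 0 genes past the threshold (5416 at an unadjusted p under 0.05) and 0 for the interaction. In their deviations from the group means, the same-numbered libraries had correlations of 0.042, -0.24 and 0.17. Pairs with different numbers ran from -0.30 to 0.26. Deviations within a group of 3 depend on each other, so these values cannot show whether the libraries were paired. Under the block CSF3 reversed to -0.24, FBXO2 to -0.033, PTX3 to -0.21 and TNIP3 to -0.19.

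Removing the span trend reversed ACAN (0.0039), LOXL2 (0.14), NFKB1 (0.15), RELA (-0.091), CSF3 (-0.20), FBXO2 (-0.076), PTX3 (-0.26) and RGS2 (-0.013). DESeq2 reversed TNIP3 (-0.0020). Leaving out 1 library at a time, the values of 7 genes crossed 0, in the ranges of -0.086 to 0.016 for ADAMTS4, -0.62 to 0.72 for CSF3, -0.25 to 0.68 for FBXO2, -0.051 to 1.02 for PTGES, -0.061 to 0.73 for RGS2, -0.49 to 0.49 for PTX3 and -0.56 to 0.42 for TNIP3. None of these genes was past edgeR's threshold in any of the fits that reversed it, and the cause was not tested.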
